A study of Mus musculus with 3 samples.

Results

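CD4+ T cells that had been activated for 48 h without dividing were set against CD4+ T cells that had gone through 2 divisions by the same time, with 1 long-read library of full-length transcripts on each side (2 of the 3 libraries of the series; the third, of naive cells, serves only as background). Both samples were wild-type T cells from spleens and lymph nodes of male C57BL/6N mice. They were purified as naive CD4+ cells, labeled with the dye CellTrace Violet and stimulated on plates with antibodies against CD3 and CD28, and undivided and divided cells were then sorted by the dilution of the dye. The undivided peak is a mixed population, since it can hold cells about to divide, slow cells and cells that never divide, and the labels do not give the number of mice behind a library. Both file names carry the same cell label, and whether it stands for a shared sequencing run is not stated. With 1 library a side and no read counts in the deposited data, no test could be made, and all differences below are between these libraries. An isoform that is listed was found, one that is not listed may have been missed, and the number of isoforms of a gene is not its expression level.

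When a naive T cell is stimulated, it leaves quiescence, grows, copies its DNA and then divides rapidly. The transcripts of one gene can begin at different first exons, join different exons and end at different poly(A) sites, and the last of these choices sets the length of the 3′ UTR, where RNA-binding proteins and microRNAs bind. Shorter 3′ UTRs are known from activated and proliferating T cells. Comparing cells of equal activation time but different division number holds the time in culture equal. The degree of activation can still differ, since the study found undivided cells that had not induced the activation marker CD69. Its authors state that their data cannot fully separate activation from entry into the cell cycle.

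The undivided library listed 12602 isoforms and the 2-division library 11109, of which 12503 and 11026 lay on the reference chromosomes and were used. They fell on 5575 and 5160 genes of the GENCODE annotation (GRCm38). The median isoform was 2039 nt long in undivided cells and 1954 nt after 2 divisions, and 6.97% and 7.71% of isoforms had 1 exon. Of 13 defining genes of CD4 T cells, 11 were listed in each library, Cd4 with 5 isoforms in undivided cells and 4 after 2 divisions, while Cd3g and the T cell receptor gene Trac were listed in neither. Markers of other cells were few and alike on both sides: 2 of 17 for B cells (Ighm and Cd74), 2 of 14 for myeloid cells (Mpeg1 and Cst3), 0 of 10 for erythroid cells and platelets, and 1 of 10 for CD8 T and NK cells, where Cd8b1 had 1 isoform in undivided cells and Klrk1 had 1 after 2 divisions. Of 6 marker genes of regulatory T cells, 4 were listed in each library, with 15 isoforms in undivided cells and 12 after 2 divisions, beside 3 in naive cells. One of these markers is Il2ra, whose protein CD25 the study reported as raised on most undivided cells. In bulk RNA of this kind, fewer cells of a type and less RNA per cell cannot be told apart.

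The 2 libraries listed largely the same genes. Of 6304 genes listed in either, 4431 were in both, which is 79.5% of the genes of undivided cells (95% CI 78.4 to 80.5, exact binomial) and 85.9% of those of 2-division cells (84.9 to 86.8). A further 1144 genes (18.1% of those listed in either) were in undivided cells alone and 729 (11.6%) in 2-division cells alone. The undivided library is larger, and after it was thinned to the isoform number of the other the expected counts were 1030 and 963, so most of the gap between the 2 counts went with library size. Genes found on one side were mostly genes with 1 isoform: 942 of the 1144 and 626 of the 729. Of genes with 1 isoform in undivided cells, 66.0% were also found after 2 divisions, of those with 2 isoforms 87.1%, of those with 5 to 9 isoforms 99.5%, and of the 73 genes with 10 or more, 100%. In the other direction the shares were 76.6%, 93.0%, 100% and 100%. A gene with 1 isoform in one library was thus often not listed in the other. Whether such a gene was missed there or not expressed cannot be told apart from these data.

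**Figure D1:**
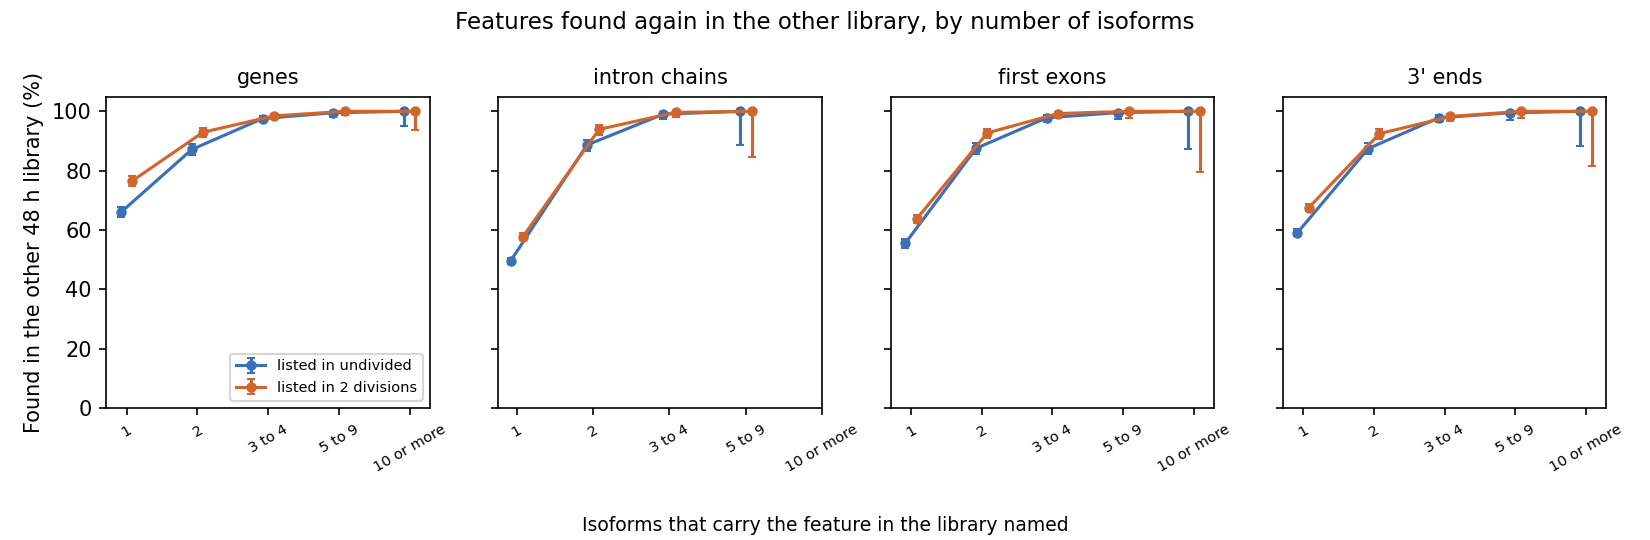
Share of genes, intron chains, first exons and 3′ ends of each 48 h library that were found in the other one (y axis, %), by the number of isoforms that carry the feature (x axis); bars are exact 95% binomial intervals, which cover counting error only. In each panel the share was lowest for features with 1 isoform (66.0% and 76.6% for genes) and was 100% in both libraries for genes with 10 or more.

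Genes with at least 3 isoforms on one side and none on the other were rare. There were 25 in undivided cells (0.397% of genes listed in either) and 13 in 2-division cells (0.206%), and no isoform of the other library touched an exon of any of them on the same strand. Coro1b, which encodes an actin-binding coronin, had 6 isoforms in undivided cells and none after 2 divisions, with 1 in naive cells. Primpol, a primase-polymerase that restarts DNA synthesis at blocked forks, had 5 in undivided cells and none in naive or 2-division cells. Eif4enif1 (a binding partner of the cap-binding protein eIF4E) and Stam (endosomal sorting of receptors) had 4 each. Those with 3 isoforms included Atrip, the partner of the checkpoint kinase ATR, Poli, a translesion DNA polymerase, Pcnt, a scaffold of the centrosome, Dnajb9, a chaperone of the endoplasmic reticulum, Tomm70a, a mitochondrial import receptor, and the noncoding transcript Gm43305. Armc8, Atl3, Elf2, Lnpep, Mier2, Pknox1, Rab4b, Rpl30, Sap30bp, Tbc1d14, Tbc1d31, Tma16 and Zcchc4 also had 3.

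In the other direction, Dmtf1, a transcription factor that binds D-type cyclins, had 4 isoforms after 2 divisions, 2 in naive cells and none in undivided cells. The other 12 genes had 3 isoforms each. They included Plk4, the kinase that starts centriole duplication, which was listed in neither naive nor undivided cells. Dync1h1, the heavy chain of cytoplasmic dynein, Cnot6l, a deadenylase of the CCR4-NOT complex, Exosc1, a subunit of the RNA exosome, and the initiation factors Eif1ax and Eif3k were in this group, as were Ppp4r2, Trmt13, Wdr45, Gpank1 and 2010111I01Rik. Add3, which encodes an adducin of the membrane skeleton, had none in undivided cells and 3 after 2 divisions, but 12 in naive cells. Whether it was missed in undivided cells or not expressed there cannot be told from these listings.

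Genes of one 48 h library were looked up in the naive library. Of genes in both 48 h libraries, 76.6% were also listed in naive cells. Of the 1144 genes in undivided cells alone, 39.2% (36.4 to 42.1) were, and of the 729 in 2-division cells alone, 33.7% (30.3 to 37.3). Among those with 1 isoform the shares were 34.9% (31.9 to 38.1) and 31.0% (27.4 to 34.8), whose intervals overlap. The same order held for the structural features: 18.7% and 14.9% of chains of introns, 23.2% and 16.5% of first exons, and 28.0% and 24% of 3′ ends of one 48 h library alone were in naive cells. The naive library carries another cell label in its file name, and both sides were set against the same naive library.

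Among the 4431 genes of both libraries, 1439 (32.5%) had more isoforms in undivided cells and 942 (21.3%) had more after 2 divisions. Summed over all genes, there were 87.7 isoforms after 2 divisions for every 100 in undivided cells, and the median difference per gene was 0. Of all 6304 genes listed in either library, 36 had at least 5 fewer and 5 had at least 5 more isoforms after 2 divisions. The 36 include genes not listed after 2 divisions, such as Coro1b and Primpol. These counts were not adjusted for the larger undivided library. Ddx5, an RNA helicase of splicing, went from 15 isoforms to 7, and the histone chaperone gene Ssrp1 from 12 to 5, whose 5 chains were all among the 12 of undivided cells. Canx, the lectin chaperone calnexin, went from 15 to 8 and Igtp, an interferon-inducible GTPase, from 13 to 6. Cblb, the ubiquitin ligase that restrains T cell activation, had 7 isoforms in undivided cells and 1 after 2 divisions, and Ccng1, the p53 target cyclin G1, had 8 and 2. In these 6 genes, most chains listed after 2 divisions were also listed in undivided cells.

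Hnrnpa2b1 and Nop56, which were rich in isoforms on both sides, went from 45 to 37 and from 30 to 22. The lincRNA Gm42047 had 14 isoforms, 5 of them spliced, in undivided cells and 7 unspliced ones after 2 divisions. It was not listed in naive cells.

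The 10 genes of both libraries that gained most isoforms after 2 divisions gained 4 to 6 each. Set, a histone chaperone and phosphatase inhibitor, went from 8 isoforms to 14, with 5 chains on each side and 3′ ends that went from 3 to 6. Tcof1, the treacle protein of ribosomal RNA transcription, went from 3 to 9 and shared 1 chain. Gart, a trifunctional enzyme of purine synthesis, went from 4 to 9 and Cct2, a subunit of the chaperonin TRiC, from 5 to 10. Hspa9, the mitochondrial chaperone mortalin, went from 14 to 19, Nop58, a core protein of box C/D ribonucleoproteins, from 8 to 12, and Nup107 of the nuclear pore from 3 to 7. Copa, a coatomer subunit, went from 2 to 6, Fgfr1op2 from 5 to 9 and Gimap1, a GTPase of lymphocytes, from 1 to 5.

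**Figure D2:**
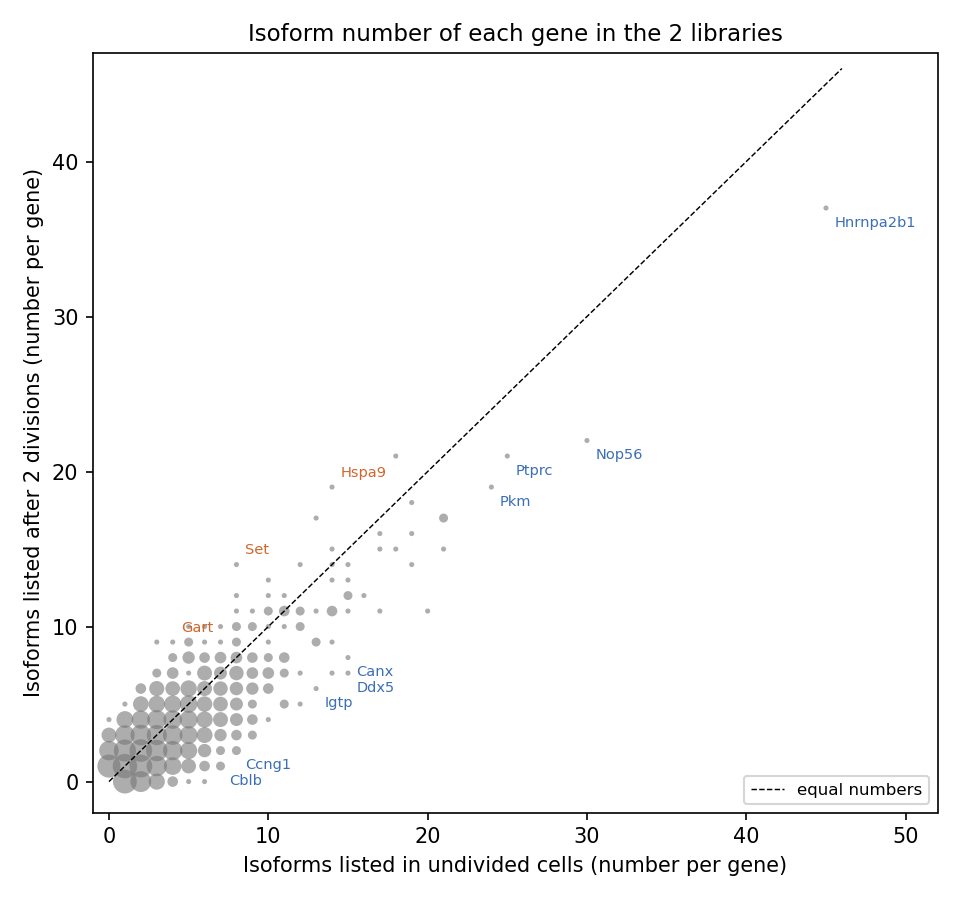
Number of isoforms of each gene in undivided cells (x axis) and after 2 divisions (y axis); each point is 1 pair of numbers, larger points stand for more genes (size on a log scale) and the dashed line marks equal numbers. Most genes lie at few isoforms on both sides; Ddx5 (15 and 7) and Igtp (13 and 6) lie under the line, and Set (8 and 14) and Gart (4 and 9) above it.

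Isoform numbers were then summed over 24 lists of genes, to be read against 87.7 per 100 for all genes and against 41.0% of genes with fewer and 26.5% with more isoforms after 2 divisions among all 6304. Genes of the T cell receptor complex and its signaling had 118 isoforms in undivided cells and 85 after 2 divisions (72.0 per 100). Of the 25 members listed, 19 had fewer and 2 had more after 2 divisions. Cd3e, an invariant chain of the receptor complex, had 7 isoforms and then 1, and the tyrosine kinase gene Zap70 had 8 and then 3. Fyn, Rasgrp1, Themis and Dgkz were listed in undivided cells alone, which is 4 of 25 against 18.1% of all genes. Lck, the kinase that starts the cascade, went from 7 to 8, and Ubash3a, a suppressor of receptor signaling, from 1 to 2.

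Genes of the interferon response had 137 and 100 isoforms (73.0 per 100), with 18 of 37 members fewer and 5 more. Samhd1, which hydrolyses deoxynucleotides, went from 11 to 5, Zbp1, a sensor of Z-form nucleic acid, from 9 to 4, and the transcription factor gene Irf1 from 9 to 5. Isg15, Ifit2, Ifi27l2a, Xaf1 and Rtp4 were listed in undivided cells alone, 5 of 37 members (13.5%) against 18.1% of all genes, and Gbp3 after 2 divisions alone, 1 of 37 (2.7%) against 11.6%. Against this direction, the antiviral GTPase gene Mx1 went from 1 to 4 and the RNA sensor gene Ifih1 from 3 to 5.

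The list of quiescence and naive-state genes had 93 and 68 isoforms (73.1 per 100, beside 205 in naive cells), with 12 of 24 members fewer and 4 more than in undivided cells. Lef1, a transcription factor of naive T cells, had 8 and 5, the chromatin organiser gene Satb1 10 and 7, and Ccr7, the receptor for entry to lymph nodes, 6 and 4. Tcf7, which encodes TCF1, had 2 in undivided cells and none after 2 divisions, beside 11 in naive cells. Tcf7, Slfn1 and Gimap7 were listed in undivided cells alone and S1pr1, Btg1 and Pdcd4 after 2 divisions alone, 3 of 24 members (12.5%) each way against 18.1% and 11.6% of all genes.

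Genes of apoptosis and p53 had 52 and 38 isoforms, with 10 of 19 members fewer and 1 more. Fas, the death receptor, went from 6 to 3, Mdm2, the ubiquitin ligase that limits p53, from 5 to 2, and Cdkn1a, the inhibitor p21 of cyclin-dependent kinases, from 3 to 1. Genes of the cytotoxic granule had 31 and 22, with 15 and 13 from granzyme B (Gzmb) and 8 and 2 from the granzyme inhibitor Serpinb6b. Genes of SR and hnRNP proteins, which guide splicing, had 238 and 189 (79.4 per 100), with 20 of 30 members fewer and 5 more. Srsf3 went from 11 to 5, Hnrnpk from 21 to 15 and Hnrnph1 from 11 to 7, while Hnrnpl and Hnrnpu went from 1 to 4 and from 2 to 5.

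The lists of one-carbon and nucleotide synthesis, the proteasome and aminoacyl-tRNA synthetases lay furthest above the value for all genes. Genes of one-carbon metabolism and nucleotide synthesis had 63 and 82 isoforms (130.2 per 100), with 14 of 25 members more and 4 fewer. Besides Gart, Adsl of purine synthesis went from 3 to 6, the mitochondrial folate enzyme gene Mthfd2 from 4 to 7, and Phgdh, the first enzyme of serine synthesis, from 2 to 4, whereas Umps of pyrimidine synthesis went from 4 to 1. Proteasome genes had 62 and 78 (126 per 100), with 13 of 32 more and 4 fewer. Psmd7 of the regulatory particle went from 4 to 8 and the ATPase gene Psmc5 from 3 to 6. Aminoacyl-tRNA synthetase genes, which charge tRNAs with amino acids, had 70 and 82 (117 per 100), with 10 of 20 more and 6 fewer. Vars and Nars each went from 3 to 6 and Dars from 2 to 5, while Eprs went from 12 to 10. Glycolysis had 78 and 81, with 9 of 18 members more, Aldoa from 3 to 6 and Eno1 from 8 to 10, although Pkm, the last enzyme of the pathway, went from 24 to 19.

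Cell cycle genes were listed almost alike in cells that had and had not divided. Of 67 genes of mitosis and cytokinesis, 62 were listed in undivided cells and 64 after 2 divisions, against 15 in naive cells, and no member was listed in undivided cells alone and 2 (Kif4 and Spc24) after 2 divisions alone, of 64 listed in either, against 18.1% and 11.6% of all genes. They had 187 and 158 isoforms (84.5 per 100). Cep55, which acts at the final cut between daughter cells, went from 9 to 3, Kif11, the kinesin of the bipolar spindle, from 5 to 1 and Kif23 from 6 to 3. Tpx2, the spindle factor that activates Aurora A, went from 6 to 10 and Hmmr from 2 to 5. Of 59 genes of DNA replication and S phase, 53 and 52 were listed, with 140 and 138 isoforms (98.6 per 100). Uhrf1, which guides maintenance of DNA methylation, went from 7 to 3, and Rrm2, a subunit of ribonucleotide reductase, from 5 to 8.

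Cytokines and chemokines had 26 and 30 isoforms over 15 listed members. Il2, the growth factor of activated T cells, had 2 and 3 isoforms, Ifng had 1 in each, and Il3 (2 isoforms), Tnfsf14 and Ccl3 (1 each) were listed after 2 divisions alone, 3 of 15 members against 11.6% of all genes. Tnfsf11 and Ccl5 (1 isoform each) were listed in undivided cells alone, 2 of 15 against 18.1%. Among cytokine receptors, which had 60 and 51, Il4ra went from 6 to 1 and the high-affinity interleukin 2 receptor gene Il2ra from 10 to 6, while the common gamma chain gene Il2rg went from 6 to 8. Among costimulatory and inhibitory receptors (101 and 84), Cd5 went from 21 to 17 and Cd69, an early activation marker, from 10 to 6, while the inhibitory receptor gene Tigit went from 2 to 4 and the adhesion receptor gene Cd44 from 1 to 3. Transcription factors of helper T cells had 76 isoforms in each library but 19 and 14 genes. Id2, Ikzf1, Nfil3, Zeb2, Tox and Myb were listed in undivided cells alone, 6 of 20 members against 18.1% of all genes. Runx3 was listed after 2 divisions alone, 1 of 20 (5%) against 11.6%. Early response and NF-kB genes had 69 and 56, with the orphan receptor gene Nr4a1 going from 9 to 6 and Nfkbia, the NF-kB inhibitor, from 5 to 2.

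Of the remaining lists, ribosome biogenesis had 137 and 131 isoforms, the citric acid cycle and respiratory chain 67 and 64, cholesterol and fatty acid synthesis 60 and 61, uptake of amino acids, nucleosides and iron 45 and 37, migration and adhesion 33 and 27, and chromatin modifiers 38 and 37. Genes of cleavage and polyadenylation, which make 3′ ends, had 41 and 45, with the poly(A) polymerase gene Papola going from 5 to 8, Cstf2 from 1 to 4 and Fip1l1 from 8 to 5. For one-carbon metabolism the exact 95% interval of the ratio was 92.6 to 184 and for the proteasome 89.0 to 179, both just above 87.7. The intervals of all other lists held 87.7. Among them were those of the T cell receptor (53.9 to 96.0), interferon (55.8 to 95.2) and SR and hnRNP (65.3 to 96.5) lists. These intervals treat isoforms as independent, which those of 1 gene are not. When only chains of introns of annotated transcripts were counted, 8 of the 24 lists moved to the other side of the value for all genes (then 91.9), among them aminoacyl-tRNA synthetases, apoptosis and p53, naive and quiescent T cells, and DNA replication, whereas the T cell receptor (87.5 per 100), interferon (83.7), one-carbon (104) and proteasome (106) lists kept their side but lay nearer to the value for all genes. The intervals for one-carbon metabolism (57.7 to 188) and the proteasome (63.6 to 178) then held that value.

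**Figure D3:**
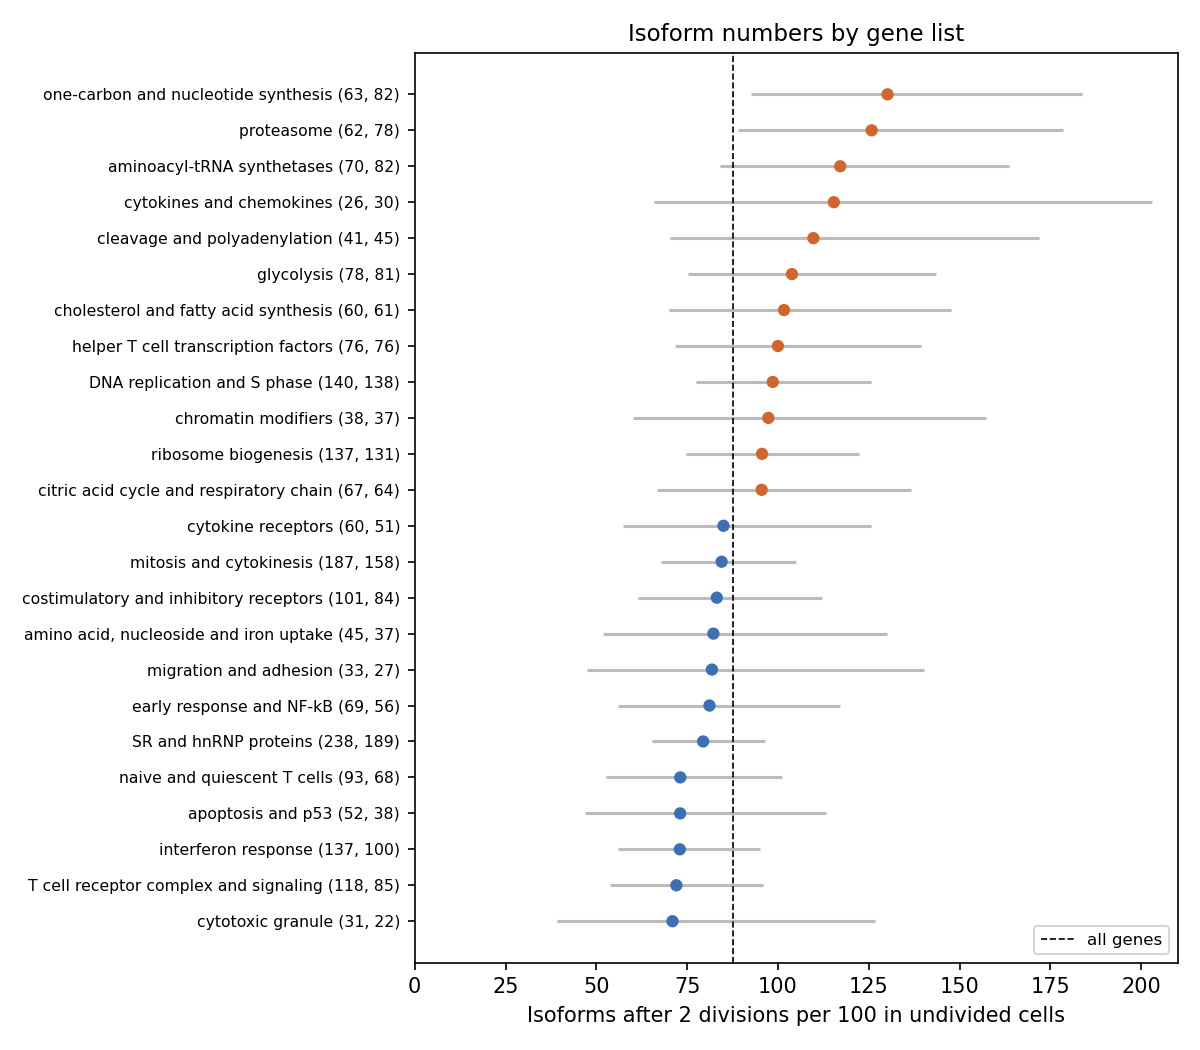
Isoforms after 2 divisions per 100 in undivided cells (x axis) for 24 gene lists, with the number of isoforms in undivided and 2-division cells in parentheses; lines are exact 95% intervals from the counts alone, and the dashed line is the value for all genes (87.7). One-carbon and nucleotide synthesis (130.2) lies highest, and the T cell receptor list (72.0) and the cytotoxic granule list (71.0) lie lowest.

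Intron chains, the ordered introns of a spliced isoform, recurred less often than genes. Of 9681 distinct chains in undivided cells and 8595 after 2 divisions, 5402 were shared, which is 55.8% and 62.9% of each library. Of all 12874 chains, 4279 (33.2%) were in undivided cells alone and 3193 (24.8%) in 2-division cells alone, and with the larger library thinned the shares found again were 56.4% and 57.1%. Chains of annotated transcripts were found again far more often (73.8% and 80.4%) than chains with an unannotated intron (21.5% and 30.2%). Of chains of one library alone, 36.9% in undivided cells and 43.3% in 2-division cells were consecutive parts of a chain of the other library, or held one of its chains as such a part. A further 28.3% and 22.9% came from genes not listed on the other side, and 13.3% and 14% held an annotated intron that the other library did not list. A whole annotated intron was kept in 10.9% (10.3 to 11.5) of spliced isoforms of undivided cells and in 9.96% (9.38 to 10.6) of those after 2 divisions.

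Of 1812 genes with at least 2 spliced isoforms in each library, 29 (1.60%) shared no identical chain. A chain that was a consecutive part of another counted as different here. In Ezh2, the methyltransferase of Polycomb repressive complex 2, 2 of 4 isoforms of undivided cells ended inside the gene, with 10 and 7 exons, and both isoforms after 2 divisions, of 20 and 13 exons, ran to the end of the gene. The isoform with 20 exons had the chain of an annotated transcript. In Eif4g1, the scaffold of the translation initiation complex, a transcript with 33 exons and 5453 nt was listed after 2 divisions, and the 4 isoforms of undivided cells had 10 to 19 exons. In the chaperone gene Hspa4, 1 of 5 isoforms after 2 divisions had the whole chain of an annotated transcript, of 19 exons. The other 6 isoforms over both libraries had the chain of no annotated transcript, but all their introns were annotated. They began further downstream and ended at the same place. Whether their chains are parts of the chain with 19 exons was not tested. Fnbp1, a membrane-bending adaptor, ended at 1 place in undivided cells and at 2 after 2 divisions. Pgap2, Cnot1, Rbm4, Supt20, Xlr4b and Ciz1 were the other named cases, and Xlr4b has close copies on the X chromosome, so that its isoforms are uncertain.

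First exons, taken by the last base of the exon, were shared in 4742 cases, 68.6% of the 6917 of undivided cells and 73.9% of the 6413 after 2 divisions. Of 8588 in all, 2175 (25.3%) were in undivided cells alone and 1671 (19.5%) in 2-division cells alone. First exons annotated as such recurred in 76.3% and 82.3% of cases, the others in 28.3% and 30.6%. Of the first exons of one library alone, 29.98% and 41.5% were inner exons in the other library, and 11.03% and 10.5% were annotated first exons of a gene that both libraries listed. Where both libraries listed a chain, the 5′ start differed by at most 20 nt in 75.8% of cases, and starts over 50 nt further upstream were about as common in undivided cells (222) as after 2 divisions (211).

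In the 809 genes with at least 3 spliced isoforms on each side, 134 annotated first exons were used in undivided cells alone and 121 after 2 divisions alone, 11 and 13 of them by 2 or more isoforms. Their share of all annotated first exons of these genes was not computed. The counts were not adjusted for the larger undivided library. Distances below run from the last base of one first exon to the last base of the other. In undivided cells, 3 of 9 isoforms of Hnrnpdl, an hnRNP-like splicing regulator, used a first exon that none of its 7 isoforms used after 2 divisions. It ended 146 nt downstream of the one most used there. Of 5 spliced isoforms of the deacetylase gene Hdac7 in undivided cells, 2 had a first exon that ended 33135 nt upstream of the one compared. After 2 divisions, each of its 4 spliced isoforms began at a first exon of its own. For 2 of 9 isoforms of Cep55 the first exon ended 236 nt downstream of the only one of the 3 isoforms after 2 divisions. In the NAD kinase gene Nadk, 2 of 6 isoforms had one that ended 1524 nt upstream. After 2 divisions alone, 2 of 9 isoforms of Gart had a first exon that ended 157 nt downstream of the one most used in undivided cells. It ended 3556 nt upstream in 2 of 5 of the bromodomain gene Brd2. In 2 of 3 of the geranylgeranyl transferase gene Rabggta it ended 148 nt downstream. The first exons of Hnrnpdl, Cep55, Gart and Rabggta began, in their most upstream isoform, before the last base of the other exon. The exon-intron borders of these first exons in GRCm38 are shown to mark exactly which exons are meant, with the last 15 bases of the exon in capitals and the first 15 of the intron in lower case.
Hnrnpdl (undivided, minus strand, chr5:100038559-100038588): CCCCACTAGTGGAAAgtaagatggggtgac
Hdac7 (undivided, minus strand, chr15:97831344-97831373): ACAGCCCCGGCGCGGgtgagtaccgggcgg
Cep55 (undivided, plus strand, chr19:38055303-38055332): CCTTTGAACTTGGCGgtattatcactttct
Nadk (undivided, plus strand, chr4:155562441-155562470): TCCTGACTGCAGCAGgtatggggggctgtg
Gart (2 divisions, minus strand, chr16:91646712-91646741): ATGGAGGTCGGCCAGgtagttctttcccag
Brd2 (2 divisions, minus strand, chr17:34122147-34122176): GGCTCCTGGATCCAGgtgagcaggggcccc
Rabggta (2 divisions, minus strand, chr14:55722038-55722067): GAGGCCGTGGTTGTGgtgagcgcttcctcc
Each intron begins with gt, the usual 5′ splice site, and each exon is the first exon of an annotated transcript. All but that of Hnrnpdl were seen in 2 isoforms, and of all first exons with 2 isoforms 87.5% (undivided) and 92.7% (2 divisions) were found in the other library.

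Arhgap45, Fcho1, Ppp5c, Pgap2, H2-K1 and Rpl10 also had such a first exon in undivided cells, and Cytip, Eef1g, H3f3b, Hnrnpa2b1, Irf9, Mcm7 and Ran after 2 divisions, each in 2 isoforms. In H2-K1, Rpl10, Cytip, Eef1g, H3f3b, Hnrnpa2b1, Irf9, Mcm7 and Ran the other library held the same exon border at an inner exon.

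3′ ends merged within 24 nt numbered 8472 in undivided cells and 7706 after 2 divisions, with 5700 shared, 67.3% and 74.0% of each. Of 10478 ends, 2772 (26.5%) were in undivided cells alone and 2006 (19.1%) in 2-division cells alone, and at equal library size the shares found again were 68.0% in both directions. Ends with the poly(A) signal AATAAA or ATTAAA on the transcript strand in the 50 nt before them recurred in 73.4% and 80.1% of cases, ends without it in 56.6% and 63.0%. Ends followed by at least 12 A in 20 nt of genome, where the primer can bind inside a transcript, recurred in 56.6% and 59.9%. Of the ends of one library alone, 29.7% and 29.5% were another end of a terminal exon that both libraries listed, and 13.0% and 15.3% lay in a terminal exon of a shared gene that the other library did not list.

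For terminal exons that both libraries listed, isoforms were grouped by the last splice acceptor into families. Of 4616 families, 3518 (76.2%) differed by at most 24 nt in mean terminal exon length and the median difference was 0 nt. After 2 divisions the mean was over 100 nt shorter in 387 families (8.38%) and over 100 nt longer in 320 (6.93%). Shorter ones thus made up 54.7% of the 707 that changed (51.0 to 58.5). In 601 of the 707 (85.0%) the libraries still shared an end. A shared end does not show whether the other ends of a family were added, missing or replaced. Measured over whole isoforms, the mean length per gene had a median difference of 0 nt, with 1137 genes over 100 nt shorter and 962 longer after 2 divisions.

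**Figure D4:**
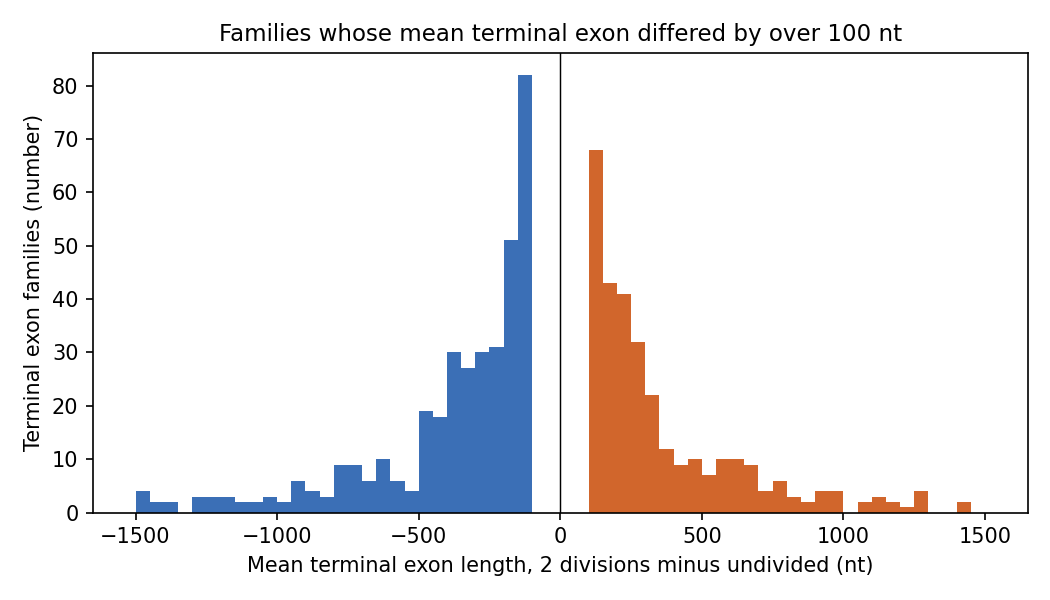
Number of terminal exon families (y axis) by the difference in mean terminal exon length between 2 divisions and undivided cells (x axis, bins of 50 nt), for families that differed by over 100 nt; 26 families lie past 1500 nt on either side and are not drawn. Both sides have a like shape, with 387 families shorter and 320 longer in all.

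Among families with at least 2 isoforms in each library, the largest shortening was that of Rel, the NF-kB subunit c-Rel. Its terminal exons were 1052 and 6188 nt long in undivided cells and 1062 and 3417 nt after 2 divisions. In Armc1 they were 782 and 2072 nt in undivided cells and 305 and 783 nt after 2 divisions, and in Lamp2, a lysosomal membrane protein, 198 and 2343 nt and then 198 and 733 nt. Sub1, a transcriptional coactivator, had 321 and 2943 nt and then 238 and 321 nt, but its far end was A-rich and had no signal. Ube2j1, a ubiquitin-conjugating enzyme of the endoplasmic reticulum, ended at 2673 nt in both isoforms of undivided cells and at 346 and 2673 nt after 2 divisions. In Rel, Armc1, Lamp2 and Sub1 the longest form was listed in undivided cells alone, and in Ube2j1 a short form was listed after 2 divisions alone. Each of these ends rested on 1 isoform. Dusp11, Dctn4, Gm16350, Pafah1b2 and Faf2 complete the 10, with differences in the mean of -1198 to -753 nt, and the far ends of Dusp11, Gm16350 and Faf2 and the near end of Faf2 were A-rich.

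The largest lengthening was that of Nup50, a nuclear pore protein, with 361 and 418 nt in undivided cells and 362 and 3310 nt after 2 divisions. Aen, a p53-induced nuclease, ended at 1231 nt in all 3 isoforms of undivided cells and in 3 of 4 after 2 divisions, where the fourth reached 4066 nt. Eps15, an endocytic adaptor, had 376 nt in both isoforms of undivided cells and 376 and 2332 nt after 2 divisions. Srsf10, a splicing factor, had 260, 1254, 1254 and 1648 nt and then 1254 and 2772 nt, and Mtpn, which encodes myotrophin, had 918, 1385 and 2349 nt and then 1385, 2350 and 3254 nt. In all 5 the longest form was listed after 2 divisions alone. Spty2d1 had 692 and 2682 nt and then 2682 and 2994 nt, and Gosr2, a SNARE of the Golgi, 281 and 2542 nt and then 2542 nt in both. Ptbp3, a paralog of the splicing repressor Ptbp1, had 7 terminal exons of 987 to 4765 nt in undivided cells and 3 of 1929 to 4765 nt after 2 divisions, and its far end was A-rich and had no signal. Vma21, whose near end was A-rich, and Ccng1 complete the 10.

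The near and far ends of 5 families in which both ends carry a poly(A) signal are shown as the last 30 bases of the transcript in GRCm38, with the signal in capitals, since they let the short and the long form of each be told apart.
Armc1 near end (2 divisions alone, minus strand, chr3:19133919-19133948): atttgcAATAAAttatcatggaaagtttct
Armc1 far end (undivided alone, chr3:19132152-19132181): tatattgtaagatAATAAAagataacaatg
Nup50 near end (both, plus strand, chr15:84939977-84940006): attaaggccAATAAAtcctttcagtgtgtc
Nup50 far end (2 divisions alone, chr15:84942926-84942955): atccatgaaatgtgAATAAAtggaaagttg
Eps15 near end (both, plus strand, chr4:109385665-109385694): gcagtaccctaATTAAAcggctttgcctag
Eps15 far end (2 divisions alone, chr4:109387621-109387650): taattatgaagatAATAAActttaataagt
Srsf10 near end (undivided alone, plus strand, chr4:135867356-135867385): ttaggacaAATAAAaggaaattcaactttg
Srsf10 far end (2 divisions alone, chr4:135869868-135869897): gagagtaaAATAAActggtctaggagcttt
Aen near end (both, plus strand, chr7:78908345-78908374): accatcggcataggAATAAAgtgcatctgg
Aen far end (2 divisions alone, chr7:78911180-78911209): taagtaagcccAATAAAttcattggtcccc
The signal is followed by 10 to 18 further bases in these. One of the 2 motifs lies in the last 30 bases of 62.6% of all isoforms in each library, so its presence does not set these ends apart, and it says that such letters are there and not that the site is used. The far ends lie 1880 nt (Armc1), 3107 nt (Nup50), 2185 nt (Eps15), 2711 nt (Srsf10) and 3793 nt (Aen) after the stop codon, and the near ends 113, 158, 229, 199 and 958 nt after it, so that all 10 lie in the 3′ UTR. Each end seen in one library alone rested on 1 isoform there, except the far end of Nup50 with 2, and of all ends with 1 isoform 59.0% (undivided) and 67.5% (2 divisions) were found in the other library.

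**Figure D5:**
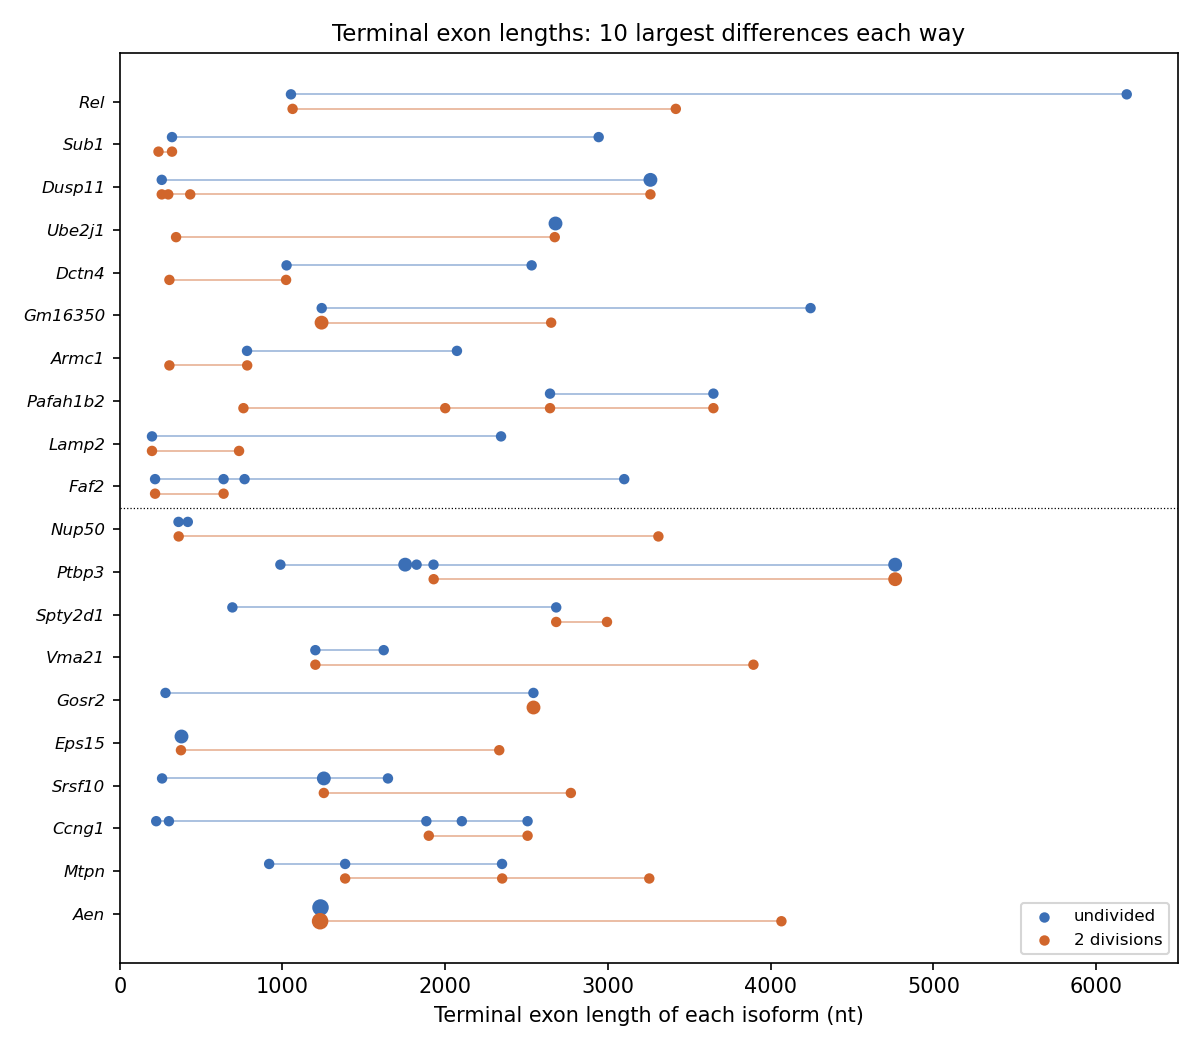
Terminal exon length of each isoform (x axis, nt) in undivided cells (blue) and after 2 divisions (orange) for the 10 families with the largest shortening (above the dotted line) and the 10 with the largest lengthening; larger points are more isoforms of 1 length. In Armc1 and Lamp2 the longest form is in undivided cells, and in Nup50 and Aen it is after 2 divisions.

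The number of distinct 3′ ends differed most for Ccng1, with 7 ends in undivided cells and 2 after 2 divisions. Both of these were among the 7. Rbm6, an RNA-binding protein, went from 5 ends to 1, the casein kinase 2 gene Csnk2a1 and the coactivator gene Ccar1 from 4 to 1, and Eprs from 6 to 3. Agpat5, an acyltransferase of phospholipid synthesis, and the helicase gene Ddx46 went from 1 to 4, and the casein kinase 1 gene Csnk1a1 from 2 to 5. Eif3a went from 11 to 8 and the pseudogene Gm8995, whose reads may belong to a related gene, from 5 to 2. In each of these 10 except Eif3a, the library with fewer ends had no end of its own.

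Some terminal exons were seen in at least 2 isoforms on one side and none on the other, in genes with at least 3 spliced isoforms in each. They numbered 19 in undivided cells and 7 after 2 divisions. These counts were not adjusted for the larger undivided library, and their share of all terminal exons was not computed. Those named here were chosen after their values were seen. In undivided cells, 2 of 12 isoforms of Nfkb2, a subunit of NF-kB, used a terminal acceptor 3 nt upstream of the one after 2 divisions. For 2 of 6 isoforms of Kif23 the terminal exon lay upstream and ended within 22 nt of an annotated end. In 2 of 11 isoforms of the deaminase gene Apobec3 the terminal exon began 453 nt upstream of the one most used after 2 divisions. It ran past the start of that exon, so the exons overlap, and ended at an annotated end. Another 2 Apobec3 isoforms had a terminal exon 7656 nt downstream. After 2 divisions, 2 of 8 isoforms of Papola ended 586 nt from any annotated end, in a terminal exon that starts 1602 nt upstream of the usual one, and 2 of 7 isoforms of Sh2d2a, a T cell adaptor, ended at an annotated end.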

How the data were processed

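Per the study's methods, the authors ran ccs for consensus reads, lima for primers, isoseq3 to require a poly(A) tail, cluster and later collapse, pbmm2 to map and SQANTI3 to annotate, and the submitters' processing notes name minimap2, Subread, mm10 and GRCm38. The values deposited by the authors are exon start and end positions per isoform, with no read counts, so depth is unknown beyond the isoform numbers. Here exons were set against the GRCm38 sequence and GENCODE M21 (the study names a later release), and 99 and 83 isoforms off the reference chromosomes were left out. Each isoform got the gene on its strand that shared most splice sites or, failing that, most exonic bases, and 316 and 334 got none. Thinned values are exact expectations for a random draw of 11026 of the 12503 isoforms. Shares carry exact Clopper-Pearson intervals at 95%, for counting error only. Named genes were the 12 with the most isoforms in one library alone, the 10 largest differences in isoform number, in terminal exon length (at least 2 isoforms in each) and in number of ends, the 10 annotated first exons of most isoforms on one side, the 10 largest genes with no shared chain, and members of the 24 lists. Members, lists and rules were chosen with earlier results of these data known. Some genes and sequences that these rules name are not reported here. The code was tested on simulated data. Alternatives for gene assignment, merging of ends, A-rich ends and size of change are in the closing section. Python 3.11.15 and scipy 1.17.1 were used.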

Additional observations from a re-analysis of the deposited data

How the results depend on the processing

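With the undivided library thinned, genes in undivided cells alone numbered 1030 in place of 1144 and genes in 2-division cells alone 963 in place of 729. With spliced isoforms alone, assignment by exonic bases and protein-coding genes alone, the counts were 1075, 1145 and 1101 in undivided cells and 666, 730 and 692 after 2 divisions. With at least 2 isoforms on one side and none on the other, 202 and 103 genes qualified in place of 25 and 13. Chains found again made up 72.1% (undivided) and 79.0% (2 divisions) when consecutive parts counted as found, and 60.5% and 66.3% when chains of annotated introns alone were used. Thinning the undivided library brought the share of features of 2-division cells found in undivided cells down to 57.1% for chains, 69.1% for first exons and 68.0% for ends. Annotated first exons alone gave 76.3% and 82.3%. For 3′ ends the shares were 64.9% and 71.4% with merging within 10 nt, 70.6% and 78.7% without A-rich ends, and 69.6% and 77.1% with spliced isoforms alone. The share of changed terminal exon families that were shorter was 54.6% to 56.0% with changes over 50 or 200 nt, without A-rich ends and with at least 2 isoforms in each library, but 65.6% (276 shorter, 145 longer) when the longest and not the mean terminal exon was compared, a measure that grows with the number of isoforms and therefore with library size. The alternative counts of the gene lists were chosen after seeing the data: with spliced isoforms alone 0 of 24 lists changed side of the value for all genes, with distinct chains 1 (costimulatory and inhibitory receptors) and with annotated chains 8. No paired analysis was possible because there was 1 library per condition, and for the same reason no library could be left out. Without read counts, a feature with 1 isoform cannot be told from one that is common in both samples and was missed in one.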
